A study of Mus musculus with 2 samples.

Results

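Genes of the milk fat globule and of fatty acid uptake were compared between mammary epithelial cells of Cuzd1-null and of Cuzd1-heterozygous mice on day 18 of pregnancy. The 10 genes (Mfge8, Btn1a1, Xdh, Plin2, Cidea, Muc1, Cd36, Fabp3, Cel and Lpl) were taken by symbol, as every probe set that names 1 of them alone, out of 18193 genes with a probe set. They held 16 probe sets, and all 16 read above the middle of the signal distribution on both arrays, so no gene was lost to a filter. The protein of Cuzd1 carries CUB domains and a zona pellucida-like domain, and the series' description reports severe defects of alveolar development and lactation in null glands. The null pool held RNA of 5 mice lacking Cuzd1, and the heterozygous pool that of 5 littermates with 1 disrupted allele, so both groups carry the disrupted gene and no wild-type group is compared. Both had a predominantly C57BL/6 background, were mated to fertile males and were otherwise untreated as far as the labels say. The ages of the mice are not given in the labels. Each pool was hybridised to 1 array, which gives 1 value per probe set and genotype. Replicate error therefore cannot be given, no test was run, and every difference below is one between these 2 pools.

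Milk fat is made as triglyceride droplets in the alveolar cell, which move to the apical surface and bud off wrapped in plasma membrane. The wrapping joins a droplet coat protein, perilipin 2, to butyrophilin in the membrane, with xanthine oxidoreductase bound to butyrophilin's cytoplasmic tail. Part of the fatty acid comes from blood, where lipoprotein lipase on the capillary wall releases it from lipoproteins, and CD36 and fatty acid binding proteins carry it into and through the cell. These transcripts increase in the mouse gland through pregnancy towards birth.

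Signals are MAS5 intensities in linear units, deposited after each array was scaled to the same trimmed mean. Ratios are log2 of null over heterozygous, so -1 means that the null pool read 2-fold lower. The floor, below which signals are mostly background, was each array's median, 32.5 units on the null array and 34.2 units on the heterozygous array. A gene was measured if 1 of its arrays was above the floor, which held for 11893 genes, and each gene is represented by its brightest probe set. Cuzd1 itself read near the floor, at 34.0 units in null and 32.4 units in heterozygous cells, and no source used here places its probe set inside or outside the deletion, so it does not check the labels. Markers of the epithelial label read bright on both arrays. Csn3, a casein, read 16461 units in null and 17785 units in heterozygous cells, and Wap, whey acidic protein, 13117 and 15403 units. Markers of other cell types were bright as well, such as Col3a1, of fibroblasts, at 4685 units in null and 3531 units in heterozygous cells. These values therefore do not show how pure the cells were. In RNA of a cell pellet such as this one, fewer cells of a type and less RNA per cell cannot be told apart.

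All 16 probe sets read lower in the null pool as deposited. Per gene, 10 of 10 had a log2 ratio below 0, where 46.0% of all measured genes did, and 52.1% of the 2770 genes with a mean signal over 500 units, a limit set after seeing that it holds all 10. The median log2 ratio of the 10 genes was -0.40 (quartiles -0.51 and -0.27), against 0.03 over all measured genes (quartiles -0.18 and 0.23) and -0.01 over those above 500 units. Most of the differences were small: 1 of the 10 genes, Cidea, was at least 2-fold lower, where 1.03% of all measured genes and 0.722% of those over 500 units were. None of the 10 was at least 2-fold higher, where 1.12% of all measured genes were, and 2.15% were 2-fold apart in either direction. Without Cidea the median was -0.36.

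**Figure D1:**
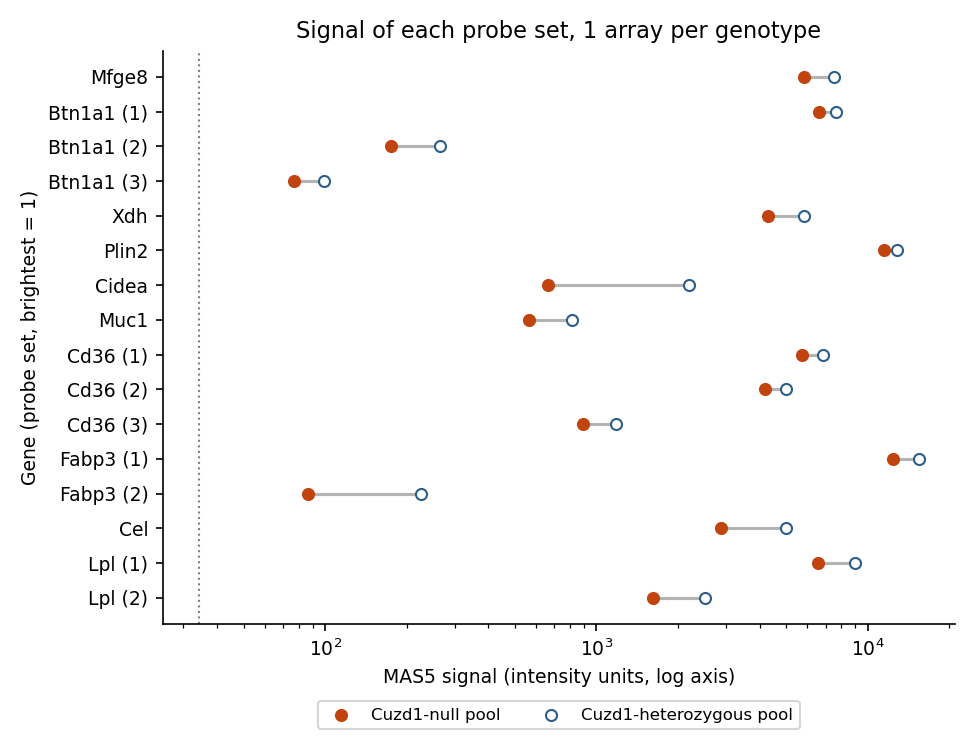
MAS5 signal (intensity units, log axis) of the 16 probe sets of the 10 genes, 1 row each, with the null pool as filled points and the heterozygous pool as open points, 1 array per genotype. The dotted line marks the floor of the heterozygous array (34.2 units). Every null point lies left of its heterozygous point, and the widest gaps are at Cidea and at the dimmer probe set of Fabp3.

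The droplet protein Cidea differed most. Cidea is a member of the CIDE family, which sits on lipid droplets and promotes their fusion and growth, and mice lacking it secrete milk with less lipid. Its 1 probe set read 665 units in null cells and 2188 units in heterozygous cells, a log2 ratio of -1.72, or 3.29-fold lower. Of the 11893 measured genes, 17 had a ratio as low, Cidea included. None of the 200 genes nearest to it in signal did, and their quartiles were -0.17 and 0.13. Under the alternatives that changed the scaling, the Cidea ratio was between -1.94 and -1.46, and so below -1 in each. Those that changed the floor, the filter or the probe set could not move it, as its 1 probe set is far above the floor.

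The 3 proteins that couple the droplet to the membrane read slightly lower in the null pool. Xdh, xanthine oxidoreductase, which acts here as a structural partner beside its role in purine breakdown, read 4299.6 units in null and 5850.1 units in heterozygous cells, a ratio of -0.44. Btn1a1, butyrophilin, an immunoglobulin-superfamily membrane protein, read 6623 and 7675 units at its brightest probe set, a ratio of -0.21. Its 2 dimmer probe sets gave ratios of -0.60 (175 units in null and 265 units in heterozygous cells) and -0.36 (76.8 and 98.9 units). Plin2, perilipin 2, the droplet coat, read 11529 units in null and 12807 units in heterozygous cells. Its ratio of -0.15 was the smallest in size of the 10 genes.

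The 2 surface proteins of the globule also read lower. Mfge8, lactadherin, a secreted protein that binds phosphatidylserine on membranes and helps macrophages take up dying cells, read 5846 units in null and 7495 units in heterozygous cells, a ratio of -0.36. Muc1, a heavily glycosylated mucin of the apical membrane, read 562 units in null and 814 units in heterozygous cells, a ratio of -0.53.

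Lpl, Cd36 and Fabp3, which act in fatty acid uptake, also read lower. Lpl, lipoprotein lipase, read 6554 units in null and 8977 units in heterozygous cells, a ratio of -0.45, and its other probe set read 1612 and 2519 units, a ratio of -0.64. Cd36, a scavenger receptor and fatty acid translocase, had ratios of -0.25, -0.25 and -0.40 at its 3 probe sets. Its brightest read 5750.1 units in null and 6844 units in heterozygous cells, and the others 4202 against 4987 units and 894 against 1176 units. The Cd36 probe sets thus spanned 0.15 log2 units, the narrowest span of the 4 genes with several probe sets.

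Fabp3, the heart-type fatty acid binding protein, which is also abundant in the lactating gland, read 12418 units in null and 15440.5 units in heterozygous cells at its brighter probe set, a ratio of -0.31. Its dimmer probe set read 86.7 and 226 units, a ratio of -1.38, so that the 2 probe sets of Fabp3 differed by 1.07 log2 units. No source used here says which Fabp3 transcripts each reads. Cel, the bile salt-stimulated lipase that is secreted into milk and aids fat digestion in the young, read 2873 units in null and 5012 units in heterozygous cells. Its ratio of -0.80, or 1.74-fold lower, was the next largest after Cidea.

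**Figure D2:**
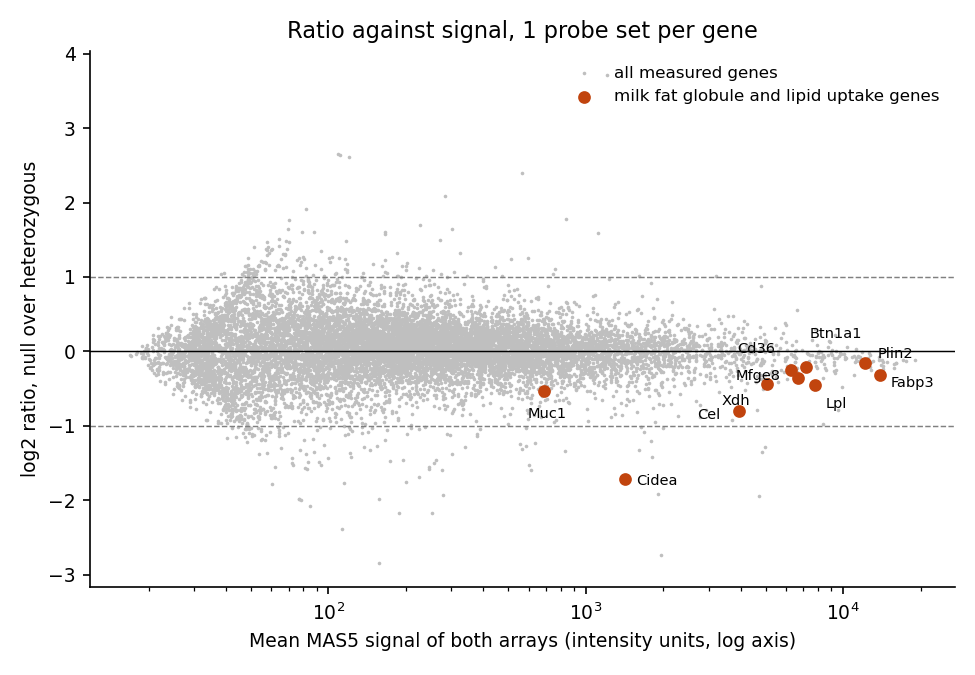
Log2 ratio of null over heterozygous against mean MAS5 signal (intensity units, log axis) for all 11893 measured genes in grey and the 10 genes in red, with dashed lines at 2-fold. The 10 genes lie below 0 on the deposited scale (Btn1a1 and Plin2 cross 0 when rescaled to the hybridization controls, and Cd36 also with the poly-A controls), and Cidea lies below the lower dashed line.

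Bright probe sets leaned low across the whole array, so each gene was set beside the 200 measured genes of nearest signal. Of 153 genes with a mean over 5000 units, 122 had a ratio below 0, with a median of -0.10. The 10 genes were each below the median of their 200 neighbours, and 9 of them below the lower quartile. Plin2 was inside the quartiles, which were -0.19 and -0.00 for its neighbours, 66 of which were as low. Ratios as low as the gene's own were held by 44 of 200 neighbours for Btn1a1, 42 for Cd36, 26 for Fabp3 and 22 for Mfge8. They were held by 11 for Xdh, 9 for Lpl, 6 for Muc1 and 4 for Cel. The genes therefore ran from Plin2, Btn1a1 and Cd36, close to other bright genes, to Cel and Cidea, which were 0.77 and 1.70 log2 units below their neighbours' medians. The neighbours of different genes overlap, and for the brightest probe sets they reach far down in signal (4267 to 19099 units for Fabp3), so these ranks only describe these arrays.

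**Figure D3:**
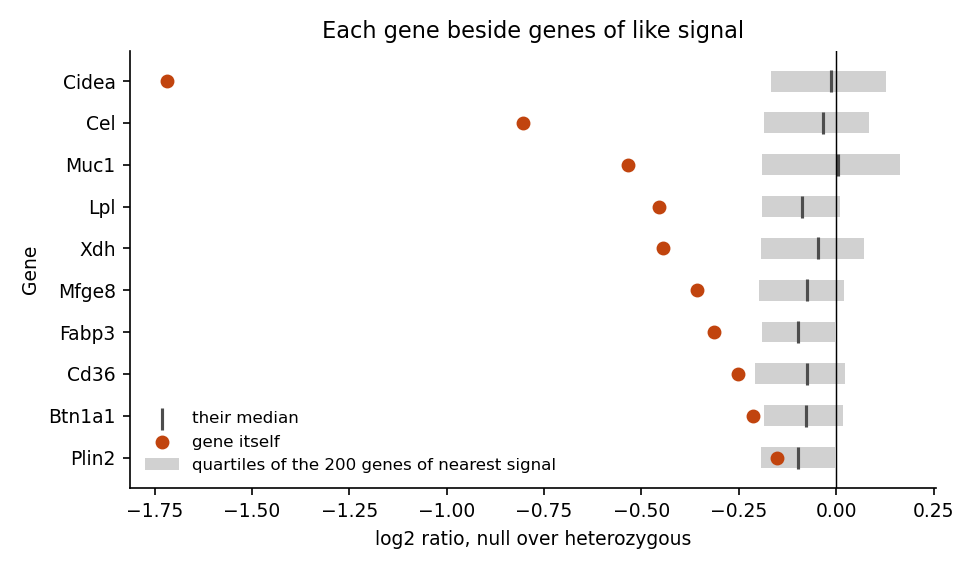
Log2 ratio of null over heterozygous for each of the 10 genes (red points), beside the quartiles (grey bars) and median (vertical ticks) of the 200 measured genes nearest to it in mean signal. Plin2 is inside its bar, and the other 9 genes are left of theirs.

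The sign of the smallest differences rested on the scaling of the arrays. The 9 probe sets of hybridization controls, which are usually added in equal amounts to each array, had a median ratio of -0.23, and the 12 probe sets of poly-A controls -0.26. Rescaled to the hybridization controls, the median of the 10 genes was -0.17 while that of all measured genes became 0.26. On that scale 8 of 10 genes were below 0, Btn1a1 reading 0.01 and Plin2 0.08, and with the poly-A controls 7 of 10, Cd36 reading 0.0045. The 10 luminal epithelial markers had a median of -0.11 as deposited (0.12 on the hybridization-control scale). Of these markers 6 were lower, among them Lalba, the regulatory subunit of lactose synthase, at -0.52, named after its value was seen. Also lower were Elf5 (-0.15), Wap (-0.23), Csn3 (-0.11) and, named after its value was seen, Csn2 (-0.11). Their 5 structural genes had a median of 0.22. The ratios were 0.06 for Krt8, 0.22 for Krt18, 0.24 for Krt19, 0.26 for Epcam and -0.13 for Cdh1. The dimmer probe set of Epcam had a ratio of -0.22. Relative to these 5 genes, a scale added after seeing the data, all 16 probe sets were lower. The median of the 10 genes was then -0.62, and Cel reached -1.02. That scale leaves out Elf5, Csn2, Wap, Lalba and Csn3, all of them lower as deposited.

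**Figure D4:**
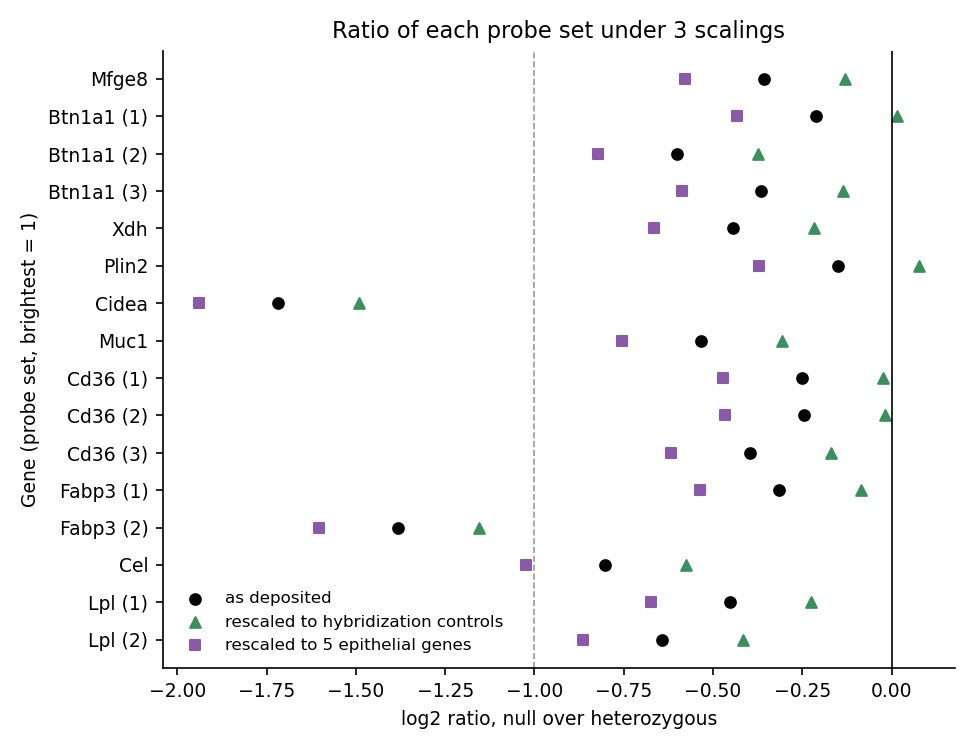
Log2 ratio of null over heterozygous for the 16 probe sets as deposited (circles), rescaled to the hybridization controls (triangles) and rescaled to 5 epithelial genes (squares), with a dashed line at 2-fold lower. On the hybridization-control scale 14 of 16 probe sets are below 0, and the brightest probe set of Btn1a1 and that of Plin2 are just above it.

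Sequence upstream of the start was at hand for 6 of the 10 genes (RefSeq, build GRCm38.p6): Mfge8, Plin2, Muc1, Cd36, Fabp3 and Cel. The 250 bases before the start of Cel, Muc1 and Plin2 are shown, since these are the genes with the 2 largest and the smallest ratio in size among the 6. Capitals mark the letters TATAAA, the core of a TATA box.
Cel, chr2:28563404-28563653, minus strand: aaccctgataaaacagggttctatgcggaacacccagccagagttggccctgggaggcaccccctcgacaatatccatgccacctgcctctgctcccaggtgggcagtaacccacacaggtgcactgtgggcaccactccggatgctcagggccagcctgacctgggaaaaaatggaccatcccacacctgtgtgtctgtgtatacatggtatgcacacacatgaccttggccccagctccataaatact
Muc1, chr3:89228806-89229055, plus strand: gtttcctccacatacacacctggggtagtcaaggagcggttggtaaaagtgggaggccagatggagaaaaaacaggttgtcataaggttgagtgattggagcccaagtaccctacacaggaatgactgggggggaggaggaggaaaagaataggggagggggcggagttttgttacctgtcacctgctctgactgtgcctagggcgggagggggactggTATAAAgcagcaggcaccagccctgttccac
Plin2, chr4:86670060-86670309, minus strand: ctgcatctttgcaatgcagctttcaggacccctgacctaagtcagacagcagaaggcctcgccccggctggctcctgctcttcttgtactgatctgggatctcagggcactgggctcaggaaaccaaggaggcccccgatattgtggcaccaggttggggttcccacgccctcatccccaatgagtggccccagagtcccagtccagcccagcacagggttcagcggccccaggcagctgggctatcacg

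The same letters were searched on both strands of all 6 windows. TATAAA stood in Muc1 alone, 31 bases before its start, and in 12.4% of the 32851 windows of that length in the table. TTCNNNGAA, the core that STAT5 binds, was in none of the 6 windows and in 7.02% of all. TTGCNNAA, the C/EBP core, and the direct repeat bound by PPAR with RXR (half-sites AGGTCA, 1 base apart) were also in none of the 6, and in 9.56% and 0.0335% of all. G and C made up 43.2% of the Cd36 window and 65.2% of that of Mfge8, with 54.8% to 64.8% in the other 4, against a median of 52.4% over all windows. The windows thus shared none of the searched letters.

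Other proteins of the globule membrane showed differences of both signs. Of 12 measured, 10 were lower on the deposited scale, where 46.0% of all measured genes were, and none was 2-fold apart. Their median of -0.13 became 0.10 on the hybridization-control scale. The 2 higher, named after their values were seen, were Ceacam1 (0.57) and Muc4 (0.15, with -0.11 at its other measured probe set). Muc15, a membrane mucin, read 7321 units in null and 7586 units in heterozygous cells (-0.05), and Cd9, a tetraspanin, 4453 and 4797 units (-0.11). At the low end, named after their values were seen, were Slc34a2, a sodium-phosphate cotransporter of the apical membrane, at 515 and 996 units (-0.95), and Abcg2, which exports riboflavin and drugs into milk, at 2839 and 4860.1 units (-0.78).

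Droplet proteins and droplet lipases had a median of -0.13 over 12 measured of 16 listed, or 0.10 on the hybridization-control scale. As deposited, 10 were lower and 2 higher, where 46.0% of all measured genes were lower. G0s2, an inhibitor of adipose triglyceride lipase, was the 1 gene at least 2-fold apart, where 2.15% of all measured genes were. G0s2 read 1078 units in null and 2186 units in heterozygous cells (2.03-fold lower). Its ratio of -1.02 only just passed the limit, and would not on the hybridization-control scale. Its target Pnpla2, the lipase itself, read 1076 and 1436 units (-0.42), as named after its values were seen. Cidec and Cideb, the closest relatives of Cidea, were below the floor on both arrays, and Plin1 was not analysed here. The ratio of Plin3, a relative of Plin2 also named after its value was seen, was -0.08. Of all relatives of the 10 genes, 9 of 18 listed were measured, with a median of -0.08 (0.15 on the hybridization-control scale) and none 2-fold apart.

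Genes around lipoprotein lipase were on both sides of 0, with 4 lower and 4 higher of 8 measured. Their median was -0.06 (0.17 on the hybridization-control scale). The ends of the list, named after their values were seen, were Lipg at -0.85 and Lrp1 at 0.79. Angptl4, a secreted inhibitor of the enzyme, read 3064 units in null and 4287 units in heterozygous cells (-0.48) at its brighter probe set. Its dimmer probe set had a ratio of 0.02. Scarb1, a lipoprotein receptor, read 1158 units in null and 1306 units in heterozygous cells (-0.17). Gpihbp1, which anchors the enzyme on capillaries, read 1002 units in null and 959 units in heterozygous cells (0.06).

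Fatty acid carriers outside the 10 genes also differed little by their brightest probe sets. Fabp4 and Fabp5 were the 2 of 7 fatty acid binding proteins measured, and had ratios of -0.15 and -0.12, or 0.09 for their median on the hybridization-control scale. The 4 measured probe sets of Fabp4 were split in sign, 2 higher and 2 lower, from -0.21 to 0.60. Transport proteins and acyl-CoA synthetases had a median of -0.07 over 10 measured (0.16 on the hybridization-control scale), with -0.08 for Dbi, an acyl-CoA binding protein, and -0.10 for Cav1, caveolin. Of the 13 measured regulators of milk fat genes none was 2-fold apart, and their median was -0.15 (0.08 on the hybridization-control scale). Elf5, which directs alveolar differentiation, had a ratio of -0.15, and Thrsp, a promoter of fatty acid synthesis, of -0.19.

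**Figure D5:**
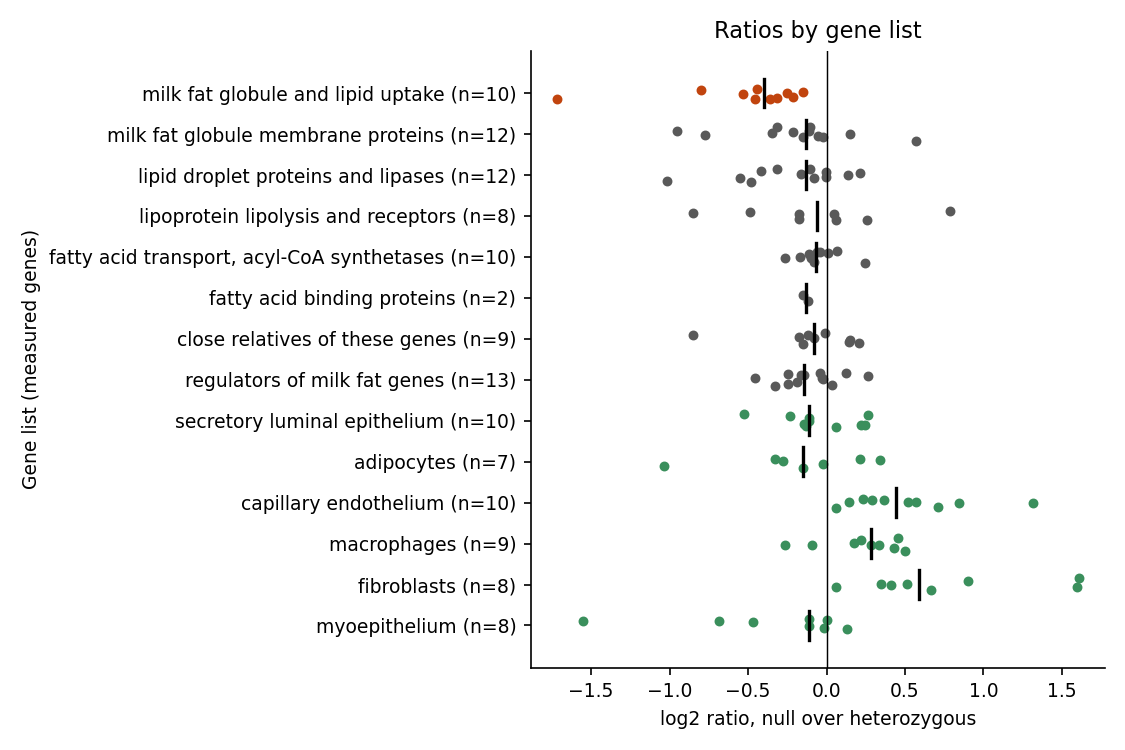
Log2 ratio of null over heterozygous for each measured gene of the 10-gene group (red), the companion lists (grey) and the marker lists of cell types (green), with the median of each list as a vertical bar. The 10-gene group has the lowest median (-0.40), the companion lists have medians from -0.15 to -0.06, all above 0 on the hybridization-control scale, and endothelial, macrophage and fibroblast markers have medians above 0.

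Several of the 10 genes are also known from other cells of the gland: Lpl, Cd36, Plin2 and Cidea from adipocytes, Cd36 from capillary endothelium, and Mfge8, Lpl and Cd36 from macrophages. Of 10 adipocyte markers 7 were measured, with a summed signal of 7032 units in null and 7671 units in heterozygous cells. As deposited, 5 of the 7 were lower and 2 higher, with a median of -0.15 (0.08 on the hybridization-control scale). Beside this and the counts below, 46.0% of all measured genes were lower. Without Fabp4, which endothelium also expresses, the 6 others summed to 862 units in null and 842 units in heterozygous cells. Leaving out Fabp4 was not part of the planned listing. The sum of the 6 rests mainly on Lipe, Slc2a4 and Pparg, the first 2 of which were higher. Lipe, hormone-sensitive lipase, read 415 units in null and 357 units in heterozygous cells (0.22). Of the others, given after their values were seen, Slc2a4 had a ratio of 0.34, Pparg of -0.02 and Retn, near the floor, of -0.33. Adipoq, Lep and Cidec are also given after their values were seen. Adipoq was below the floor in null cells (29.2 units, against 66.6 units in heterozygous cells). With the null value raised to the floor, its ratio was -1.03. It was the 1 adipocyte marker at least 2-fold lower, where 1.03% of all measured genes were. Lep was also below the floor in null cells (9.04 units, against 39.4 units in heterozygous cells), and Cidec was below it on both arrays. Endothelial markers were higher in 10 of 10, summing to 2951 units in null and 2295 units in heterozygous cells, with Pecam1 at 382 and 296 units. Their median was 0.45 (0.67 on the hybridization-control scale). Of these 10, 1 was at least 2-fold higher, where 1.12% of all measured genes were. Macrophage markers were higher in 7 of 9 measured, summing to 6337 units in null and 4787 units in heterozygous cells. Lyz2 read 2744 and 2036 units, and Csf1r 1293 and 914 units. The macrophage median was 0.29 (0.51 on the hybridization-control scale). Fibroblast markers were higher in 8 of 8, summing to 11186 units in null and 7376 units in heterozygous cells. Dcn read 2655 and 1677 units, and Col3a1 4685 and 3531 units. The fibroblast median was 0.59 (0.82 on the hybridization-control scale), and 2 of the 8 were at least 2-fold higher. Myoepithelial markers were lower in 6 of 8 as deposited, with a median of -0.11 (0.12 on the hybridization-control scale). The contractile genes Acta2 and Mylk had ratios of -0.11 and -0.01. The basal keratins, given after their values were seen, were at the low end, with Krt17 at 126 units in null and 368 units in heterozygous cells (-1.55), Krt14 at -0.69 and Krt5 at -0.47. The part of these cell types in the ratios of the 10 genes was not tested.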

How the data were processed

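The deposited file holds 1 signal intensity per probe set and array on a linear scale, which, per the submitters' processing notes, the authors computed by the MAS5 method (Affymetrix Expression Console, version 1). Each array held 45101 probe sets, 64 of them controls, and both had the same mean of 150.0 units (149.952) after the top and bottom 2% were left out. Depth does not apply to arrays; their number, 1 per genotype, limits the precision, and each pool held RNA of 5 mice. No genome build is named for the probe sets. Detection calls and scanner files were not used here.

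Probe sets with 1 symbol in the platform annotation (34945 outside the controls) were named, with symbols updated through Entrez IDs in the RefSeq table. The 932 with several symbols and 9160 with none named no gene. Signals were floored at each array's 50th percentile over non-control probe sets, and genes were counted as called at 2-fold. The named genes were the 10 genes with every probe set. From each companion list, up to 4 measured genes at least 2-fold apart were named, or the 2 brightest where none was, and from each marker list the 2 brightest. Others are said to be named after their values were seen, apart from Cuzd1, the relatives of Cidea and the epithelial genes used for rescaling. The 10 genes and all lists were chosen with earlier results of these data known. Alternatives changed the floor, the scaling, the probe set that stands for a gene and the measured filter. The procedure was run on simulated data with planted ratios, all larger than 2-fold and in genes above both floors. That run does not bear on the smaller ratios that most of the 10 genes had. Work was done in Python 3.11.15 with numpy 2.4.6, pandas 2.3.3 and statsmodels 0.14.6 (lowess, fraction 0.3).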

Additional observations from a re-analysis of the deposited data

How the results depend on the processing

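No paired analysis was possible because each genotype has 1 array and its number only names it. Over the 11 alternatives, 105 of 110 log2 ratios of the 10 genes were below 0, and 7 of the 10 genes were below 0 in all 11. The exceptions were Btn1a1 (0.01 and 0.04) and Plin2 (0.08 and 0.10) on the hybridization-control and poly-A scales, and Cd36 (0.0045) on the poly-A scale alone. Many of the 110 values could not differ from the deposited ones. Changes of floor or filter left all 10 ratios as they were, because these genes read above every floor tried. A gene with 1 probe set could not change with the choice of probe set either. Only changes of scaling could move every gene. The median of the 10 genes, -0.40 as deposited, moved by more than the robust SD of 0.17 among genes of like signal (the median over the 10) in 3 cases: -0.17 on the hybridization-control scale, -0.15 on the poly-A scale and -0.62 relative to 5 epithelial genes. Quantile normalization gave -0.31 and centring on the trend with signal -0.33. The number of genes at least 2-fold apart, 1 as deposited, was 2 relative to the epithelial genes (Cidea and Cel) and 2 with the next brightest probe set (Cidea and Fabp3). Over all measured genes, 133 were at least 2-fold higher and 123 lower as deposited. These counts were 370 and 368 with no floor, 666 and 817 when floored at percentile 25, and 24 and 39 when floored at percentile 75. They were 348 and 60 on the hybridization-control scale, 387 and 58 on the poly-A scale, and 52 and 283 relative to the epithelial genes. Rescaling moves every ratio by 1 amount, so it alters signs and counts but not the order of the genes.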

Other observations

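Some listed genes with several probe sets were noticed after their values were seen. Ceacam1, an adhesion molecule of the globule membrane, was higher in the null pool at all 8 of its measured probe sets, with log2 ratios of 0.33 to 1.19. Its brightest read 3747 units in null and 2526 units in heterozygous cells. Some of these probe sets may also bind transcripts of related genes. Vldlr, a receptor for triglyceride-rich lipoproteins, was higher at 5 of its 6 measured probe sets, with 206 units in null and 172 units in heterozygous cells at the brightest. Its other probe set read 33.4 units in null cells, just above the floor, and 1.98 units in heterozygous cells, far below it. With the latter raised to the floor, the ratio was -0.03. Of the 5 higher probe sets, 1 was also near the floor, at 35.2 units in null and 30.2 units in heterozygous cells (0.04). Lipg, endothelial lipase, a relative of Lpl, was lower at its 2 measured probe sets, with 76.5 units in null and 138 units in heterozygous cells at the brighter.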
